A study of Homo sapiens with 9 samples.

Results

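The genes described here are the human zinc-finger genes whose symbols run from ZNF500 to ZNF899, taken where a gene had at least 90 counts summed over the 9 libraries of the count table. Of 255 genes with such a symbol among the 19569 genes of the table, 195 reached that minimum, 50 had between 1 and 89 counts and 10 had no count. The minimum used no difference between times, and the choice of a number range for the symbols says nothing about function. The 3 genes just below it were ZNF606 with 67 counts, ZNF662 with 73 and ZNF843 with 83, and the 3 just above it were ZNF837 with 110, ZNF829 with 121 and ZNF701 with 123. All 195 members are annotated as protein-coding in GENCODE 29 on GRCh38, and all 195 passed the low-count filter of the test.

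Messenger RNA had been sequenced from the Jurkat Clone E6-1 line, a leukaemic human T lymphoblast line that stands here for a T cell, with 3 libraries before activation (0 h, non-activated), 3 after 5 h and 3 after 12 h of activation. Activated cells were kept on plates coated with anti-CD3 at 10 µg/mL with anti-CD28 at 5 µg/mL in the medium, which engages the T-cell receptor complex and its costimulatory receptor. The 3 libraries of a time are called biological replicates, but separate cultures are not mentioned, so the p-values reflect how much these libraries vary, which could be technical variation alone. Cells kept as long without antibody are not described, so activation and time in culture cannot be told apart.

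C2H2 zinc fingers are short protein modules, each folded around a zinc ion, that read DNA in tandem arrays. Most genes of this symbol range encode KRAB zinc-finger proteins, in which an N-terminal KRAB box recruits the scaffold protein TRIM28 and, through it, the histone methyltransferase SETDB1, HP1 proteins and histone deacetylases. The family is best known for silencing transposable elements, and many of its genes lie in clusters on chromosome 19 that arose by repeated duplication. Members without a KRAB box are a mixed group with roles in chromatin complexes, splicing and the ribosome.

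In the conceptual translations of their GENCODE coding sequences, 123 members held a match to a KRAB A-box pattern and 72 held none. The pattern may miss divergent boxes, so the groups are called KRAB found and not found. The members carried between 0 and 30 matches to a C2H2 finger pattern, with a median of 10 per protein, 11 where a KRAB box was found and 7 where none was. The genes lay on 18 chromosomes, with 106 of them on chromosome 19, where 88 of the 106 had a KRAB box. Another member lay within 100 kb of 111 of them, and 117 overlapped another annotated gene, so that reads of overlapping genes cannot be told apart without a known strand setting. For 25 members, over 10% of the coding 50-base words also occurred in a transcript of another gene, and counts of these 25 are uncertain to that extent, while 129 shared no such word.

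Library totals ran from 4222258 to 9359187 counts. The summed counts of the 195 members made up 0.591% ± 0.0135 of a library at 0 h, 0.597% ± 0.0214 at 5 h and 0.598% ± 0.0214 at 12 h (SD, n = 3 each), so the summed share differed between times by less than the spread between libraries. The 2 libraries with the highest shares were replicate 1 at 5 h (0.619%) and replicate 1 at 12 h (0.614%), and replicate 1 at 12 h was also the smallest library. Single members were low in abundance, with a median level of 19.8 CPM (counts per 1000000 counts, on library sizes scaled by the TMM method) over the 9 libraries against 36.7 CPM for all 12036 genes tested. Marker levels are given per library total without that scaling. Of 12 T-cell markers looked up, 9 were in the table, and TRAC, TRBC1 and TRBC2 were not. The 9 were all above 10 CPM at 0 h. They summed to between 5205 and 6095 CPM at 0 h, 4913 and 5676 CPM at 5 h and 4797 and 5533 CPM at 12 h. Single markers differed in direction. CD4 had a mean of 10.5 CPM at 0 h, 2.85 at 5 h and 2.28 at 12 h, and CD5 had 251, 709 and 614 CPM. Of 11 markers of other cell types, HBB and EPCAM had no count and only CD79A, a B-cell receptor chain, was above 10 CPM at 0 h. Their sum ran from 172 to 218 CPM at 0 h, from 91 to 121 CPM at 5 h and from 134 to 158 CPM at 12 h, and its part in the results was not tested.

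A member was called where edgeR's quasi-likelihood test gave a Benjamini-Hochberg adjusted p below 0.05 over all 12036 genes. At 5 h against 0 h, 45 of the 195 members rose (23.1%, against 24.9% of all genes tested) and 25 fell (12.8%, against 24.8%). In either direction that was 35.9% of the members and 49.7% of all genes, and the members' median log2 fold change was 0.09, against 0.00 for all genes. At 12 h against 0 h, 44 members rose (22.6%, against 26.3% of all genes) and 35 fell (17.9%, against 24.8%), 40.5% in either direction against 51.1%. The members' median log2 fold change was then 0.05. Between the 2 activated times, at 12 h against 5 h, 24 members rose (12.3%, against 18.1% of all genes) and 40 fell (20.5%, against 18%), 32.8% in either direction against 36.1%. The median log2 fold change of this comparison was -0.02. The share of members that rose was thus near the background in the comparisons with 0 h, while the share that fell at 5 h lay under it, and no test of these shares was made. The members' lower median level, 19.8 CPM against 36.7 CPM for all genes tested, was not taken into account in these shares.

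These splits depended on the scaling between libraries. Scaled by plain library totals, with no correction for composition, the median of all genes moved to a log2 fold change of -0.12 at 5 h and -0.11 at 12 h against 0 h. Under that scaling 30 members rose and 38 fell at 5 h against 0 h, and 36 rose and 47 fell at 12 h against 0 h. At 12 h against 5 h, 26 rose and 38 fell. The members' median log2 fold change at 5 h was then -0.03, still above that of all genes.

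Large changes were few. A called change of at least 2-fold was seen for 14 members at 5 h against 0 h (7.18%, against 11.9% of all genes), for 15 at 12 h against 0 h (7.69%, against 12%) and for 9 at 12 h against 5 h (4.62%, against 4.32%). Among them are ZNF704, ZNF853, ZNF785 and ZNF837, which reached the minimum of counts only through the times at which they were high. The 204 other genes named ZNF with a number, at the same minimum of 90 counts, were called as follows. At 5 h against 0 h 64 were higher (31.4%, against 24.9% of all genes) and 22 lower (10.8%, against 24.8%). At 12 h against 0 h 45 were higher (22.1%, against 26.3%) and 42 lower (20.6%, against 24.8%). At 12 h against 5 h 19 were higher (9.31%, against 18.1%) and 47 lower (23%, against 18%).

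By their calls at the 2 activated times, 25 members were higher than at 0 h at both, 14 were lower at both and none was called in opposite directions. Another 20 were higher at 5 h and not called at 12 h, of which 14 fell at 12 h against 5 h. Another 11 were lower at 5 h and not called at 12 h, of which 4 rose at 12 h against 5 h. At 12 h but not at 5 h, 19 were higher and 21 were lower than at 0 h, of which 12 and 15 also differed from 5 h in that direction. No comparison called 76 members. These patterns were not counted over all genes tested, so none of them is read as a trait of the members.

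**Figure D1:**
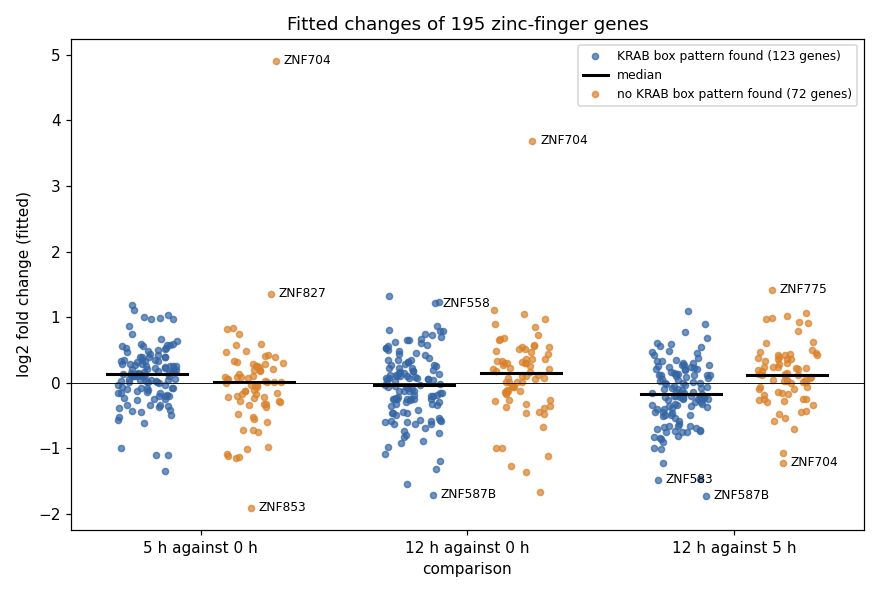
Fitted log2 fold change (vertical axis) of each of the 195 genes in the 3 comparisons (horizontal axis), with 123 genes with a KRAB box pattern to the left of 72 without and a bar at each group's median. At 12 h against 5 h the medians are -0.16 with a KRAB box and 0.12 without, and ZNF704 lies far above all others against 0 h.

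Members with and without a KRAB box differed most in the step from 5 h to 12 h. Where a KRAB box was found, 31 of 123 rose at 5 h against 0 h (25.2%, against 24.9% of all genes). In that comparison 11 fell (8.94%, against 24.8%). At 12 h against 0 h 22 rose (17.9%, against 26.3%) and 23 fell (18.7%, against 24.8%). At 12 h against 5 h 6 rose (4.88%, against 18.1%) and 32 fell (26%, against 18%). The share of KRAB members that rose at 5 h was thus near that of all genes, and the share that fell lay under it. The higher calls of KRAB members at 5 h lay mostly on chromosome 19, where 26 of 88 rose (29.5%) and 4 fell (4.55%). On other chromosomes 5 of 35 rose (14.3%) and 7 fell (20%). The median log2 fold changes were 0.20 on chromosome 19 and -0.07 on other chromosomes. This split was made after the values were seen. Where no KRAB box was found, 14 of 72 rose (19.4%) and 14 fell (19.4%) at 5 h against 0 h. At 12 h against 0 h 22 rose (30.6%) and 12 fell (16.7%), and at 12 h against 5 h 18 rose (25%) and 8 fell (11.1%). The median log2 fold changes at 12 h against 5 h were -0.16 and 0.12, and under library totals 8 rose and 30 fell with a box and 18 rose and 8 fell without. With single libraries left out, the calls at 12 h against 5 h lay between 5 and 8 higher and between 23 and 37 lower with a box, and between 12 and 21 higher and between 6 and 9 lower without one. Without replicate 2 at 5 h, the 11 lower calls at 5 h among KRAB members became 7. Under library totals the KRAB members' calls at 5 h against 0 h were 20 higher and 16 lower. These counts describe the groups, and no test of their difference was made.

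**Figure D2:**
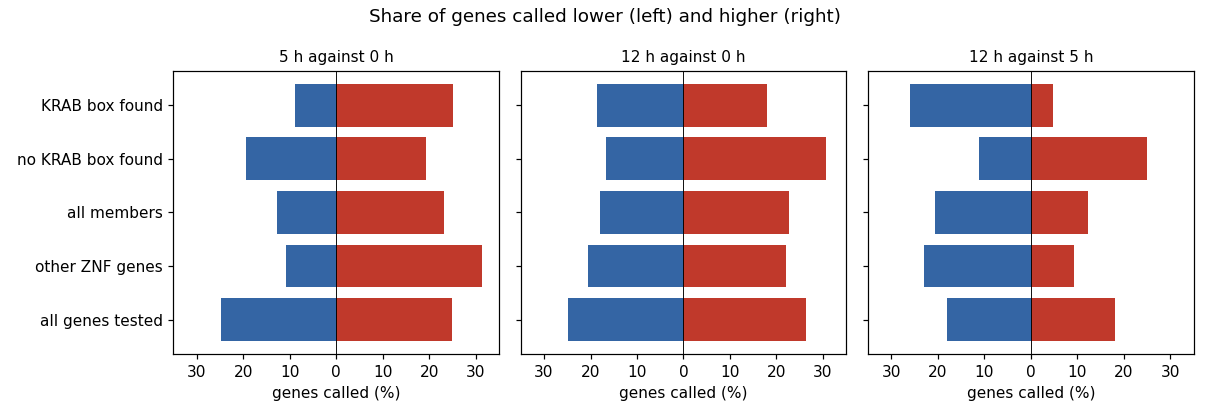
Percent of genes called lower (left of 0, blue) and higher (right of 0, red) in each comparison, for KRAB members (123), members with no KRAB box found (72), all members (195), other ZNF genes (204) and all genes tested (12036). At 12 h against 5 h, 26% of the KRAB members were lower and 4.88% higher, against 18% and 18.1% of all genes.

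On chromosome 19, 26 of 106 members rose and 6 fell at 5 h against 0 h, 24 rose and 13 fell at 12 h against 0 h, and 11 rose and 25 fell at 12 h against 5 h. At 5 h that was 24.5% higher, near the 24.9% of all genes, and 5.66% lower, against 24.8%. On the other chromosomes 19 of 89 rose and 19 fell at 5 h against 0 h, 20 rose and 22 fell at 12 h against 0 h, and 13 rose and 15 fell at 12 h against 5 h. In the same order that was 21.3%, 22.5% and 14.6% higher and 21.3%, 24.7% and 16.9% lower, to be set against the same shares of all genes. Without replicate 1 at 5 h the chromosome 19 counts at 5 h were 17 and 4, and without replicate 2 at 12 h the lower calls at 12 h against 0 h were 8. Library totals gave 17 higher and 10 lower at 5 h on chromosome 19. The run of 17 members at chr19:51927147-53496255 (GRCh38, GENCODE 29) held 9 that rose and 0 that fell at 5 h, 4 that rose and 1 that fell at 12 h, and 0 that rose and 8 that fell at 12 h against 5 h. The 0 lower calls at 5 h stood in each of the fits that left out 1 library, where between 6 and 9 of the 17 rose. Few members fell at 5 h anywhere on chromosome 19 (5.66%), so 0 lower calls are no particular trait of this run. Runs of 6 and 12 members, at chr19:8806170-9793180 and chr19:11483427-12633840, also had 0 lower calls at 5 h, with 4 and 3 higher. A second run of 17 at chr19:36182060-37817300 held 3 that rose and 0 that fell at 5 h, 2 that rose and 4 that fell at 12 h, and 0 that rose and 5 that fell at 12 h against 5 h. Runs were bounded by gaps of over 1 Mb between members, and this split into 14 runs was made after the values were seen. The 2 runs of 17 are among the larger ones and were picked for their counts. The largest run, of 30 members at chr19:55476332-58418327, had calls both ways, with 6 higher and 2 lower at 5 h, 8 and 6 at 12 h against 0 h, and 4 and 8 at 12 h against 5 h. In 3 runs, of 6, 2 and 2 members, the calls at 5 h were 2, 1 and 1, all lower. Of the 25 members that share coding words with other genes, 10 rose (40%, against 24.9% of all genes) and 0 fell (against 24.8%) at 5 h. At 12 h against 5 h 0 rose (against 18.1%) and 10 fell (40%, against 18%). Part of the pattern thus rests on genes whose counts are uncertain.

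Among all members ZNF704 showed the largest change. ZNF704 (ENSG00000164684.13, chr8:80628451-80874781, minus strand, GENCODE 29) is a relative of ZNF395 and SLC2A4RG with no KRAB box found. It had 70, 75 and 80 counts in the 5 h libraries against 3, 1 and 4 counts in the 0 h libraries, and 11, 46 and 40 counts at 12 h. In CPM that was 11.1 ± 1.29 at 5 h and 4.54 ± 1.67 at 12 h, against 0.34 ± 0.17 at 0 h (SD, n = 3 each). Every activated library was above every non-activated one, and every 5 h library above every 12 h one. The log2 fold change was 4.90 ± 0.38 (SE) at 5 h and 3.69 ± 0.43 at 12 h against 0 h, and -1.22 ± 0.25 (edgeR adjusted p = 0.000923) at 12 h against 5 h. With 8 counts in the 0 h libraries together, the size of the rise is imprecise while its direction held in all alternatives. ZNF704 reached the minimum of 90 counts only through the activated libraries, so a gene this low at 0 h had to be higher after activation to be counted among the members, and its rise is given as a description with no p.

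**Figure D3:**
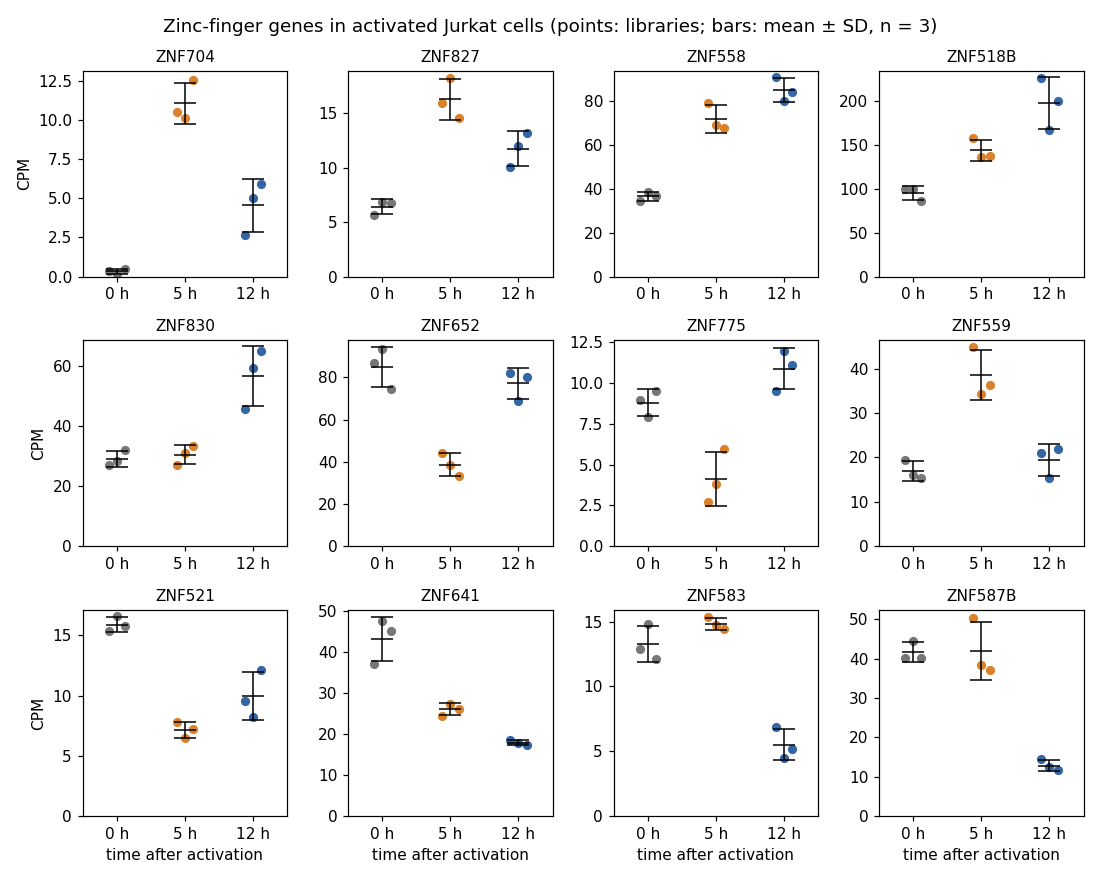
CPM (vertical axes, from 0) of 12 members in each library at 0, 5 and 12 h, with the mean and SD of 3 libraries as bars. ZNF704 and ZNF827 are highest at 5 h, ZNF652 and ZNF775 are lowest at 5 h, and ZNF583 and ZNF587B are lower at 12 h than in all libraries at 0 h and 5 h.

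One list held partners of chromatin complexes. Of 10 genes listed for such a role, ZNF532 and ZNF608 were under the minimum, with 3 and 6 counts, and 8 were members. At 5 h 3 of the 8 rose and 2 fell, at 12 h 4 rose and 2 fell against 0 h, and at 12 h against 5 h 3 rose and 2 fell, with median log2 fold changes of 0.10, 0.38 and 0.15. Of all genes, 24.9% rose and 24.8% fell at 5 h and 26.3% and 24.8% at 12 h, and with 8 genes nothing is read from these counts. Under library totals 2 rose and 3 fell at 5 h.

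ZNF827, which recruits the NuRD remodelling complex to telomeres in cells that lengthen them without telomerase, had 15.9, 18.2 and 14.6 CPM at 5 h against 5.63, 6.88 and 6.71 CPM at 0 h. All 5 h libraries lay above all 0 h libraries, and the log2 fold change was 1.35 ± 0.17 (edgeR adjusted p = 2.01e-06). At 12 h it had 10.0, 12.0 and 13.2 CPM, still above every 0 h library, with a log2 fold change of 0.89 ± 0.18 (adjusted p = 0.000356). The difference of -0.45 ± 0.16 at 12 h against 5 h (adjusted p = 0.0351) was lost without replicate 1 at 5 h (0.0614), replicate 2 at 5 h (0.157), replicate 1 at 12 h (0.0906) or replicate 2 at 12 h (0.083), and by DESeq2 (0.099).

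ZNF518B, a partner of the polycomb complex PRC2 and of the methyltransferase EHMT2, climbed at each step. It had 100.1, 100.5 and 86.6 CPM at 0 h, 158, 136 and 137 CPM at 5 h and 198 ± 29.9 CPM at 12 h (SD, n = 3), with no overlap between times. The log2 fold changes were 0.59 ± 0.11 at 5 h (edgeR adjusted p = 0.000134) and 1.04 ± 0.11 at 12 h (adjusted p = 1.02e-07) against 0 h, and 0.45 ± 0.11 (adjusted p = 0.00245) at 12 h against 5 h. Its paralogue ZNF518A had 116 ± 8.47 CPM at 0 h, 125 ± 11.1 CPM at 5 h and 135 ± 12.4 CPM at 12 h and was not called, with a log2 fold change of 0.22 ± 0.10 at 12 h against 0 h (adjusted p = 0.0673).

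ZNF609, which binds the cohesin loader NIPBL and the Integrator complex, had 118 to 136 CPM at 0 h, 152 to 160 CPM at 5 h and 190, 228 and 214 CPM at 12 h, with no overlap between times. It rose by a log2 fold change of 0.73 ± 0.09 at 12 h against 0 h (edgeR adjusted p = 1.16e-06) and by 0.42 ± 0.09 at 12 h against 5 h (adjusted p = 0.00106). The smaller rise of 0.31 ± 0.09 at 5 h against 0 h (adjusted p = 0.00821) was lost without replicate 2 at 0 h (0.0628) and under library totals, where the log2 fold change was 0.18.

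ZNF516, a partner of the CtBP and LSD1 co-repressors, had 25.6, 27.2 and 30.1 CPM at 12 h, against 14.0, 17.7 and 16.6 CPM at 5 h. The 12 h libraries lay above all others, and the log2 fold change was 0.78 ± 0.14 at 12 h against 5 h (edgeR adjusted p = 0.000226) and 0.55 ± 0.14 at 12 h against 0 h (adjusted p = 0.00211).

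ZNF592 and ZNF687, which sit with ZNF532 and ZMYND8 in one zinc-finger co-repressor assembly, went the other way. ZNF592 had 75.5, 76.1 and 75.4 CPM at 5 h against 105, 110 and 117 CPM at 0 h, a log2 fold change of -0.55 ± 0.09 (edgeR adjusted p = 3.1e-05), and was also lower at 12 h, with 83.7, 92.5 and 81.9 CPM (-0.36 ± 0.09, adjusted p = 0.00195). The groups at both times lay under the 0 h libraries. ZNF687 had 29.1 ± 2.13 CPM at 5 h against 36.8 ± 2.62 CPM at 0 h. Its log2 fold change of -0.34 ± 0.11 (adjusted p = 0.017) was lost without replicate 2 (0.059) or 3 (0.057) at 0 h or replicate 1 at 5 h (0.0752).

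ZNF644, a partner of the EHMT1 and EHMT2 methyltransferases, had 90.8, 75.5 and 92.3 CPM at 12 h, against 112, 109 and 125 CPM at 5 h. The log2 fold change at 12 h against 5 h was -0.42 ± 0.10 (edgeR adjusted p = 0.00308). Against 0 h the 12 h difference of -0.33 ± 0.10 (adjusted p = 0.0105) was lost without replicate 1 at 0 h (0.0627) or replicate 2 at 12 h (0.0776).

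All 5 genes listed for roles at the ribosome or in RNA handling were members. At 5 h 2 rose and 0 fell and at 12 h 2 rose and 0 fell against 0 h, and 1 rose and 0 fell at 12 h against 5 h. With 24.8% of all genes lower at 5 h and at 12 h, 0 of 5 is not read as a trait of the list. The largest rise was that of ZNF830 (ENSG00000198783.6, chr17:34961530-34963775), a spliceosome-associated protein. It had 27.0, 28.6 and 32.1 CPM at 0 h, 27.2, 31.1 and 33.4 CPM at 5 h and 56.7 ± 9.97 CPM at 12 h (SD, n = 3), where the lowest library had 45.6 CPM. All 12 h libraries lay above all others, with log2 fold changes of 0.97 ± 0.13 against 0 h (edgeR adjusted p = 3.19e-06) and 0.91 ± 0.13 against 5 h (adjusted p = 2.28e-05), while 5 h and 0 h libraries overlapped. ZNF830 overlaps CCT6B, so reads of both genes are not separable here without the strand.

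ZNF638, an RNA-binding nuclear protein that brings the HUSH silencing complex to unintegrated retroviral DNA, had the most counts of any member, 12510 over the 9 libraries. It had 243, 205 and 238 CPM at 5 h against 178, 170 and 162 CPM at 0 h, with no overlap and a log2 fold change of 0.43 ± 0.10 (edgeR adjusted p = 0.000911). At 12 h it had 205 ± 21.6 CPM, and the difference from 0 h (0.27 ± 0.10, adjusted p = 0.0262) was lost under library totals (0.174) and without replicate 2 (0.0638) or 3 (0.096) at 0 h or replicate 1 (0.0862) or 3 (0.0921) at 12 h.

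ZNF593, whose yeast counterpart acts in export of the large ribosomal subunit, had 18.6, 22.2 and 16.5 CPM at 5 h against 14.3, 11.2 and 15.1 CPM at 0 h. That log2 fold change of 0.49 ± 0.16 (edgeR adjusted p = 0.0179) was lost without replicate 2 at 0 h (0.0977), without replicate 2 at 5 h (0.116) and under library totals (0.0687). ZNF598, the ubiquitin ligase that marks collided ribosomes, was not called at any time, with 58.8 ± 7.96 CPM at 0 h, 50.7 ± 4.97 CPM at 5 h and 62.5 ± 12.6 CPM at 12 h. ZNF622, a factor in late maturation of the large subunit, was at 24.3 ± 0.89 CPM at 0 h, 24.5 ± 4.44 CPM at 5 h and 24.1 ± 3.44 CPM at 12 h, with a log2 fold change of 0.01 ± 0.14 against 0 h at both times.

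A further list was drawn up for lymphoid or haematopoietic roles, and no such role is given here for its members ZNF580, ZNF581 and ZNF831. ZNF683 (HOBIT), a factor of resident T cells, had 42 counts and was no member. Of the other 5, 1 rose and 2 fell at 5 h, 2 rose and 2 fell at 12 h against 0 h, and 1 rose and 1 fell at 12 h against 5 h. With 24.9% of all genes higher and 24.8% lower at 5 h, counts of 5 genes tell nothing of the list.

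ZNF521, a factor of immature blood progenitors that opposes EBF1, had 7.82, 6.49 and 7.21 CPM at 5 h against 15.3, 16.6 and 15.7 CPM at 0 h. At 12 h it had 9.52, 8.18 and 12.1 CPM, so all activated libraries lay under the non-activated ones. ZNF521 changed by a log2 fold change of -1.15 ± 0.18 at 5 h (edgeR adjusted p = 1.89e-05) and -0.68 ± 0.17 at 12 h (adjusted p = 0.00233). ZNF831 fell alongside it, with 5.71, 6.08 and 6.89 CPM at 5 h and 8.30, 5.89 and 6.81 CPM at 12 h, against 16.2, 12.3 and 12.1 CPM at 0 h. Its log2 fold changes were -1.12 ± 0.19 (adjusted p = 7.19e-05) at 5 h and -0.99 ± 0.19 (adjusted p = 0.000253) at 12 h against 0 h.

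ZNF655, a KRAB protein known as a binding partner of the signalling protein VAV1, was transiently higher. It had 136, 101 and 122 CPM at 5 h against 86.2, 90.9 and 82.6 CPM at 0 h, without overlap, and a log2 fold change of 0.46 ± 0.11 (edgeR adjusted p = 0.0012). At 12 h it had 98.4, 80.6 and 94.6 CPM, overlapping the 0 h libraries. The fall at 12 h against 5 h (-0.40 ± 0.11, adjusted p = 0.00735) was lost without replicate 1 at 5 h (0.057) or replicate 2 at 12 h (0.0548).

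ZNF580 and ZNF581 overlap each other at chr19:55635016-55643469 and chr19:55635459-55645622 on the same strand, so their counts are uncertain with respect to one another. ZNF580 had 24.2, 28.8 and 27.1 CPM at 12 h, against 11.4, 14.2 and 15.4 CPM at 5 h, a log2 fold change of 0.98 ± 0.14 (edgeR adjusted p = 2.32e-05). It was also above the 0 h libraries at 12 h (0.65 ± 0.14, adjusted p = 0.000491). ZNF581 had 22.0, 30.6 and 18.8 CPM at 12 h against 17.9, 14.8 and 18.8 CPM at 0 h. Its difference of 0.49 ± 0.16 (adjusted p = 0.0162) was lost without replicate 2 at 0 h (0.0751), under library totals (0.0551) and without replicate 2 at 12 h, where the log2 fold change was 0.23 (0.253).

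Of 8 genes listed for other single-gene roles, ZNF503, ZNF703 and ZNF750 were under the minimum with 34, 38 and 21 counts, and 5 were members, of which ZNF704 is described above. In the order 5 h against 0 h, 12 h against 0 h and 12 h against 5 h, 1, 1 and 1 of the 5 rose and 2, 2 and 2 fell, again too few to set against the shares of all genes.

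ZNF652 (ENSG00000198740.9, chr17:49289206-49362473, minus strand), a DNA-binding partner of the ETO-family co-repressor CBFA2T3, dipped at 5 h. It had 86.8, 93.3 and 74.5 CPM at 0 h, 44.4, 38.3 and 33.4 CPM at 5 h and 82.2, 68.9 and 80.1 CPM at 12 h. The 5 h libraries lay under all others, and 12 h and 0 h overlapped. Its log2 fold change was -1.13 ± 0.12 at 5 h against 0 h (edgeR adjusted p = 9.54e-08) and 0.99 ± 0.12 at 12 h against 5 h (adjusted p = 2.79e-06), while at 12 h against 0 h it was -0.14 ± 0.11 (adjusted p = 0.296).

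ZNF800, a repressor of enteroendocrine genes in human gut organoids, had 58.7, 48.4 and 46.5 CPM at 0 h, 65.7, 58.1 and 58.4 CPM at 5 h and 37.8, 36.3 and 37.3 CPM at 12 h. The 12 h libraries were lowest, with log2 fold changes of -0.71 ± 0.11 against 5 h (edgeR adjusted p = 5.54e-05) and -0.47 ± 0.11 against 0 h (adjusted p = 0.00158). ZNF668, linked to p53 stability and DNA repair, had 15.6, 16.8 and 17.2 CPM at 5 h against 29.8, 23.3 and 22.0 CPM at 0 h (-0.60 ± 0.15, adjusted p = 0.00209). Its difference at 12 h against 0 h (-0.47 ± 0.15, adjusted p = 0.0108) was lost without replicate 1 at 0 h (0.0879). ZNF746 (PARIS), the parkin substrate that represses PGC-1alpha, had 55.7 ± 3.25 CPM at 0 h, 54.7 ± 2.95 CPM at 5 h and 46.3 ± 6.93 CPM at 12 h and was not called.

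Outside the listed roles, ZNF558 rose at both times. It encodes a KRAB protein known to silence SPATA18 in human neural progenitors. ZNF558 (ENSG00000167785.9, chr19:8806170-8832328, minus strand) had 34.7, 38.7 and 36.7 CPM at 0 h, 78.9, 69.1 and 67.5 CPM at 5 h and 91.0, 80.0 and 84.1 CPM at 12 h. All activated libraries were above all non-activated ones. The log2 fold changes were 0.97 ± 0.10 at 5 h (edgeR adjusted p = 1.07e-07) and 1.21 ± 0.10 at 12 h (adjusted p = 4.81e-09), and 5 h and 12 h did not differ past the threshold (0.24 ± 0.10, adjusted p = 0.061).

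ZNF529 also rose at both times, with 71.9, 53.5 and 64.7 CPM at 5 h and 51.9 ± 5.97 CPM at 12 h (SD, n = 3), against 29.7, 33.3 and 30.3 CPM at 0 h. Its log2 fold changes were 1.03 ± 0.12 (edgeR adjusted p = 6.89e-07) and 0.73 ± 0.12 (adjusted p = 6e-05), and no activated library overlapped a non-activated one. ZNF721 (23 finger matches) had 209, 169 and 176 CPM at 5 h and 206, 150 and 166 CPM at 12 h, against 119, 111 and 102 CPM at 0 h, with log2 fold changes of 0.74 ± 0.11 (adjusted p = 1.42e-05) and 0.65 ± 0.11 (adjusted p = 7.06e-05). ZNF772 rose at both times (0.98 ± 0.23, adjusted p = 0.00121, and 0.78 ± 0.23, adjusted p = 0.00807), with a mean of 10.5 CPM at 5 h and 9.49 CPM at 12 h, against 5.31 CPM at 0 h, and 10.6% of its coding words are shared with another gene.

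ZNF852, with 12.5% of its coding words shared with ZKSCAN7, also rose. It had 22.2, 19.2 and 24.6 CPM at 12 h against 7.42, 13.8 and 9.64 CPM at 0 h, a log2 fold change of 1.10 ± 0.19 (edgeR adjusted p = 6.92e-05). Members with fewer counts rose as well. ZNF610 had 4.64, 3.93 and 4.00 CPM at 12 h against 1.75 ± 0.23 CPM at 0 h (1.23 ± 0.35, adjusted p = 0.00641). ZNF844 had 4.16 ± 0.47 CPM at 12 h against 1.65 ± 0.49 CPM at 0 h (1.32 ± 0.34, adjusted p = 0.00315). The rise of ZNF844 at 5 h (1.11 ± 0.35, adjusted p = 0.0117) was lost without replicate 3 at 0 h (0.0659) or replicate 1 at 5 h (0.0559).

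ZNF559 was the KRAB member with the largest rise at 5 h. It had 44.8, 34.2 and 36.4 CPM at 5 h against 16.9 ± 2.23 CPM at 0 h (SD, n = 3). Its 12 h libraries, with 21.0, 15.3 and 21.9 CPM, overlapped those at 0 h. This rise at 5 h was a log2 fold change of 1.18 ± 0.15 against 0 h (edgeR adjusted p = 1.76e-06) and the fall at 12 h against 5 h one of -1.01 ± 0.15 (adjusted p = 4.07e-05). ZNF559 overlaps an annotated read-through gene, ZNF559-ZNF177, whose counts are not separable from it here.

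ZNF816, in the 17-gene run of chromosome 19, had 20.3, 12.8 and 14.7 CPM at 5 h against 8.18, 7.92 and 7.81 CPM at 0 h, a log2 fold change of 1.00 ± 0.19 (edgeR adjusted p = 0.000155). It overlaps the read-through gene ZNF816-ZNF321P, with which it shares coding words. ZNF614 in the same run had 2.44, 1.75 and 1.63 CPM at 12 h against 5.11, 4.33 and 3.76 CPM at 5 h (-1.23 ± 0.33, adjusted p = 0.00664) and was called at neither time against 0 h.

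Among the members that fell at both times, ZNF641 stepped down at each. It had 37.1, 47.5 and 45.1 CPM at 0 h, 24.5, 27.4 and 26.2 CPM at 5 h and 18.6, 17.9 and 17.3 CPM at 12 h, with no overlap between times. Its log2 fold changes were -0.73 ± 0.12 at 5 h (edgeR adjusted p = 3.84e-05) and -1.27 ± 0.13 at 12 h (adjusted p = 5.22e-08) against 0 h, and -0.54 ± 0.13 (adjusted p = 0.00315) at 12 h against 5 h. ZNF594 had 16.2, 15.5 and 17.9 CPM at 5 h and 17.6, 14.7 and 13.2 CPM at 12 h, against 25.4, 35.9 and 36.5 CPM at 0 h, with log2 fold changes of -0.98 ± 0.15 (adjusted p = 1.84e-05) and -1.12 ± 0.15 (adjusted p = 4.44e-06). ZNF514 fell to 9.72 ± 2.02 CPM at 5 h and 10.5 ± 0.69 CPM at 12 h, against 20.8 ± 4.39 CPM at 0 h (-1.10 ± 0.18, adjusted p = 4.08e-05, and -0.98 ± 0.18, adjusted p = 0.000128).

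Some of the largest falls at 5 h were in members with few counts. ZNF853 had 7, 9 and 6 counts at 5 h and 9, 10 and 6 counts at 12 h, against 37, 31 and 24 counts at 0 h. Its log2 fold changes were -1.91 ± 0.38 and -1.66 ± 0.38. ZNF517 had 2.02 ± 0.30 CPM at 5 h against 4.31 ± 1.02 CPM at 0 h (-1.10 ± 0.31, edgeR adjusted p = 0.00633). ZNF785 had 10, 5 and 6 counts at 5 h against 13, 21 and 26 at 0 h, a log2 fold change of -1.35 ± 0.41. That call was lost without replicate 3 at 0 h or replicate 2 at 5 h. ZNF837 had 4, 10 and 4 counts at 12 h against 18, 17 and 18 at 0 h. Its log2 fold change was -1.37 ± 0.46, a call lost without replicate 3 at 12 h and by DESeq2. At their lowest level in all libraries, ZNF853, ZNF785 and ZNF837 would not have reached the minimum of counts for members. Genes this low after activation had to be higher at another time to be counted. The falls of ZNF853, ZNF785 and ZNF837 are therefore given as description with no p, though the counts of called members include them.

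Besides ZNF652, a second member dipped at 5 h by more than 2-fold. ZNF775 had 8.95, 7.92 and 9.52 CPM at 0 h, 2.71, 3.78 and 5.95 CPM at 5 h and 9.52, 12.0 and 11.1 CPM at 12 h, so that the 5 h libraries lay under all others. The log2 fold change was -1.09 ± 0.24 at 5 h against 0 h (edgeR adjusted p = 0.000755) and 1.42 ± 0.24 at 12 h against 5 h (adjusted p = 0.000122). ZNF768, a protein regulated by RAS signalling, had 8.30, 12.3 and 12.4 CPM at 12 h against 4.51, 7.30 and 4.23 CPM at 5 h (1.06 ± 0.23, adjusted p = 0.00136). Its difference from 0 h at 12 h (0.54 ± 0.22, adjusted p = 0.0424) was lost without replicate 1 (0.106) or 3 (0.127) at 0 h or replicate 2 (0.152) or 3 (0.142) at 12 h, under library totals (0.103), by DESeq2 (0.115) and by limma (0.0933). ZNF575 had 4.88, 6.87 and 7.11 CPM at 12 h against 3.16, 3.51 and 3.45 CPM at 5 h (0.93 ± 0.26, adjusted p = 0.00812). Its fall at 5 h against 0 h (-0.75 ± 0.26, adjusted p = 0.0193) was lost without replicate 3 at 0 h (0.108), without replicate 1 at 5 h (0.0589) and by DESeq2 (0.0603). ZNF524 rose by 1.01 ± 0.30 at 12 h against 5 h (adjusted p = 0.0129), a call lost without replicate 1 at 5 h (0.0702) or replicate 3 at 12 h (0.0591).

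Several KRAB members fell at 12 h after showing no called change at 5 h. ZNF583 (ENSG00000198440.9, chr19:56397966-56436035, plus strand) had 12.9, 14.8 and 12.1 CPM at 0 h, 15.3, 14.7 and 14.4 CPM at 5 h and 6.83, 4.47 and 5.18 CPM at 12 h. The 12 h libraries lay under all others, with log2 fold changes of -1.32 ± 0.19 against 0 h (edgeR adjusted p = 6.78e-06) and -1.49 ± 0.19 against 5 h (adjusted p = 4.76e-06). ZNF596 had 8.57, 10.0 and 9.52 CPM at 0 h, 10.5, 7.57 and 8.62 CPM at 5 h and 3.17, 2.94 and 3.55 CPM at 12 h. Its log2 fold changes were -1.54 ± 0.23 (adjusted p = 9.67e-06) against 0 h and -1.46 ± 0.23 (adjusted p = 5.52e-05) against 5 h. ZNF658 fell to 8.38 ± 1.20 CPM at 12 h, against 15.9 ± 3.49 CPM at 5 h (-0.90 ± 0.19, adjusted p = 0.00088). ZNF790 had 4.19 ± 0.42 CPM at 12 h against 7.64 ± 0.42 CPM at 5 h (-0.86 ± 0.23, adjusted p = 0.00605). Its difference from 0 h at 12 h (-0.58 ± 0.23, adjusted p = 0.0407) was lost without replicate 1 (0.0852) or 2 (0.136) at 0 h, replicate 3 at 5 h (0.0519) or replicate 1 (0.052), 2 (0.0598) or 3 (0.125) at 12 h, with no low-count filter (0.0556), with only the libraries of both times fitted (0.0597) and by DESeq2 (0.117).

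ZNF530 fell to 6.17 ± 1.29 CPM at 12 h, against 13.6 ± 1.56 CPM at 0 h, a log2 fold change of -1.19 ± 0.19 (edgeR adjusted p = 2.58e-05). Its value at 5 h was 9.44 ± 0.58 CPM, and that difference from 0 h (-0.53 ± 0.18, adjusted p = 0.0164) was lost without replicate 3 at 0 h (0.0817), replicate 3 at 5 h (0.0597) and by DESeq2 (0.0588). The difference at 12 h against 5 h (-0.66 ± 0.20, adjusted p = 0.0134) was lost without replicate 2 at 12 h (0.0963).

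The largest fall at 12 h was that of ZNF587B (ENSG00000269343.9, chr19:57819741-57846238, plus strand). It had 40.1, 44.6 and 40.1 CPM at 0 h, 50.4, 38.3 and 37.1 CPM at 5 h and 14.4, 12.3 and 11.7 CPM at 12 h. The 12 h libraries lay far under the other 6, which overlapped. The log2 fold change was -1.72 ± 0.14 against 0 h (edgeR adjusted p = 4.38e-09) and -1.73 ± 0.14 against 5 h (adjusted p = 2.1e-08), and 0.01 ± 0.12 at 5 h against 0 h (adjusted p = 0.949).

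ZNF587B lies among close relatives, and 27.3% of its coding 50-base words occur in another gene, with ZNF814 as the partner sharing most. It also overlaps ZNF586. The finger modules show how close the relatives are, and they were chosen after the values were seen. Each of the 15 finger matches of ZNF587B was set against the stretch of each relative's coding sequence with the fewest different bases. Of the 15, 2 were identical in ZNF814, 1 in ZNF552 and 0 in ZNF587. The first and the fourth matches are shown. Summed over these relatives, the first had the fewest differences, tied with the second, and the fourth had the most. For ZNF587 alone the second match was closer than the first, with 7 differences. The bases are those of the GENCODE 29 coding sequence on GRCh38 in the direction of the gene, from the first cysteine codon to the last codon of the match, and capitals mark bases that differ from ZNF587B. For the first finger ZNF814 and ZNF552 have 0 differences from ZNF587B and ZNF587 has 16.
ZNF587B finger 1 (chr19:57840954-57841019, plus strand): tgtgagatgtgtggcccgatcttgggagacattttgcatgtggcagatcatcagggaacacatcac
ZNF587, nearest to finger 1 (chr19:57858692-57858757, plus strand): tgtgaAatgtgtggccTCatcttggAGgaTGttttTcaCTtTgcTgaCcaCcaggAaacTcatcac
For the fourth finger ZNF814 has 7 differences, ZNF587 has 20 and ZNF552 has 24.
ZNF587B finger 4 (chr19:57841572-57841634, plus strand): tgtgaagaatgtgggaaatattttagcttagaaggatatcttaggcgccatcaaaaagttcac
ZNF814, nearest to finger 4 (chr19:57874016-57874078, minus strand): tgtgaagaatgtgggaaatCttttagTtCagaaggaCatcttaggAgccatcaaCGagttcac
ZNF587, nearest to finger 4 (chr19:57859388-57859450, plus strand): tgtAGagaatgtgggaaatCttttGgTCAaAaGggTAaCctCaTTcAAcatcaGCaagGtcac
ZNF552, nearest to finger 4 (chr19:57808478-57808540, minus strand): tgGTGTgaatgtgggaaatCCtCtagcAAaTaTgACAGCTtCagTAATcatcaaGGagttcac

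The relatives did not show the fall of ZNF587B in size. ZNF814 had 38.8, 31.0 and 29.2 CPM at 12 h, against 34.5, 44.0 and 38.2 CPM at 0 h, which overlapped (log2 fold change -0.25 ± 0.14, edgeR adjusted p = 0.123). At 5 h it had 53.4, 40.5 and 48.4 CPM, and its difference at 12 h against 5 h was called (-0.54 ± 0.13, adjusted p = 0.00377). ZNF587, which with its near-copy ZNF417 is known to repress endogenous retroviruses in human cells, had 123, 101 and 99.7 CPM at 12 h against 101 ± 8.78 CPM at 0 h (0.08 ± 0.11, adjusted p = 0.523). ZNF552 had 8.99 ± 2.04 CPM at 12 h against 10.3 ± 0.19 CPM at 0 h (-0.21 ± 0.19, adjusted p = 0.377), and the overlapping ZNF586 had 15.7 ± 2.67 CPM against 14.2 ± 0.49 CPM (0.11 ± 0.16, adjusted p = 0.559). How reads were divided among these genes was not tested.

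**Figure D4:**
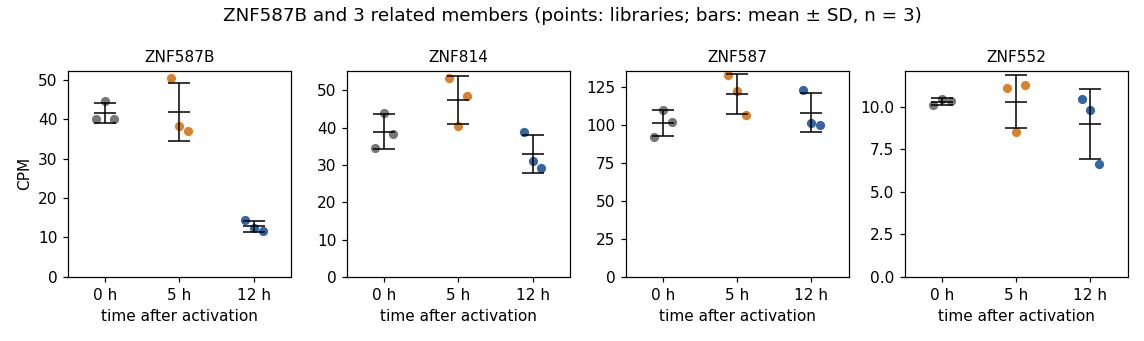
CPM (vertical axes, from 0) of ZNF587B and 3 related members in each library at 0, 5 and 12 h, with the mean and SD of 3 libraries as bars. ZNF587B lies between 11.7 and 14.4 CPM at 12 h, under all its 0 h and 5 h libraries, while the 12 h libraries of ZNF814, ZNF587 and ZNF552 overlap those at 0 h.

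RefSeq promoter sequence (GRCh38.p14), from 250 bases before to 50 bases after each start, was available for 166 of the 195 members. It was available for 15272 genes of the count table in all. No minimum of counts was set for these 15272, while each member had at least 90, so the sets are unlike in expression. Searched on both strands, the 7-letter ETS-factor core CCGGAAG occurred in 68 of the 166 (41%), against 14.4% of the 15272. It was in 46.8% of the promoters of KRAB members and in 29.8% of those with no KRAB box found. The GC box GGGCGG, the core of SP-factor sites, occurred in 66.3% of the members' promoters and 59.2% of all. It was in 61.5% of the promoters of KRAB members and in 75.4% of those with no KRAB box found. By call at 12 h against 5 h, it was in 19 of 22 promoters of members that rose and in 14 of 35 of those that fell. At 12 h against 0 h it was in 34 of 38 and in 14 of 29. At 5 h against 0 h the shares were alike, with 29 of 39 (74.4%) of those that rose and 14 of 19 (73.7%) of those that fell. At 12 h against 5 h, 18 of the 24 members that rose had no KRAB box found, and 32 of the 40 that fell had one. The GC box and the KRAB box were thus not told apart in these shares. These 2 of 18 motifs searched were chosen after the values were seen, the letters can overlap other motifs, and a match is no site. Other motifs also differed from all promoters. An NF-kB motif was in 9.04% of the members' promoters against 2.23% of all. The CCAAT box was in 51.2% against 36.5%, and an NRF1 motif in 15.1% against 8.6%. GATA and TATA motifs went the other way, with 3.61% against 7.46% and 3.01% against 9.62%. The end of the window, after the start, occurred in the annotated transcript used for the coding sequence in 89 of the 166. That does not show that the starts agree.

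The 250 bases before the RefSeq start of 4 members that rose, dipped or fell are given in the direction of the gene. ETS cores and GC boxes on either strand are in capitals. The sequences are given to show how unlike these promoters are.
ZNF558 (higher at both times; chr19:8832305-8832554, minus strand): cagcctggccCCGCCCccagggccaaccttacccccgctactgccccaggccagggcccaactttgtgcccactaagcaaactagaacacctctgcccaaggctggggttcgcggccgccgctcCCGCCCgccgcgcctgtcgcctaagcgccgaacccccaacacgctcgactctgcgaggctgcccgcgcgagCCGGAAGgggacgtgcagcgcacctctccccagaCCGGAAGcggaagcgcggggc
ZNF652 (dip at 5 h; chr17:49362251-49362500, minus strand): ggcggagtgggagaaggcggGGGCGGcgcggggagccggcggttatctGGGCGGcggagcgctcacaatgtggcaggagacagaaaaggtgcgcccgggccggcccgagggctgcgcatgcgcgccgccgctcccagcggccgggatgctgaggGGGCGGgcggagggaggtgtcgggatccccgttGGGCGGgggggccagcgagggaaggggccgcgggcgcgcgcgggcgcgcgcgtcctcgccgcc
ZNF583 (lower at 12 h; chr19:56403764-56404013, plus strand): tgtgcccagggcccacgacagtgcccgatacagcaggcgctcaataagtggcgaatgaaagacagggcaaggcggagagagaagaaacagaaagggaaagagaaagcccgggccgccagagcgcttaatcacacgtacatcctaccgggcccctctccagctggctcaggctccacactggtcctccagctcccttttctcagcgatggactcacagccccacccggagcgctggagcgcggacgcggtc
ZNF587B (lower at 12 h; chr19:57830049-57830298, plus strand): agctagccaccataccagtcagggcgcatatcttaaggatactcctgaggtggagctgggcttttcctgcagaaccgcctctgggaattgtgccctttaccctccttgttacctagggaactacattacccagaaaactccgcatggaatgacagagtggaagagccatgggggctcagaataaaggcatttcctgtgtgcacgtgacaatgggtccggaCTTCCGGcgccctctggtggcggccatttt
ZNF558 held 2 GC boxes and 2 ETS cores, the ETS cores at positions -55 and -21 before the start. ZNF652 held 4 GC boxes and no ETS core, ZNF587B held 1 ETS core at position -30 and no GC box, and ZNF583 held neither.

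For the machinery that KRAB proteins call on, the share of genes called was near that of all genes at 5 h against 0 h. It was above that of all genes at 12 h against 0 h. The share that fell at 12 h lay above that of all genes against both 0 h and 5 h, and no test of these shares was made. Of 33 listed co-repressor and partner genes, none of them a member, 10 rose and 9 fell at 5 h against 0 h, 11 rose and 13 fell at 12 h against 0 h, and 4 rose and 9 fell at 12 h against 5 h, against 24.9% and 24.8%, 26.3% and 24.8%, and 18.1% and 18% of all genes tested. TRIM28 itself, the scaffold, was not called: it had 369 ± 17.2 CPM at 5 h and 355 ± 13.3 CPM at 12 h, against 359 ± 17.8 CPM at 0 h, with log2 fold changes of 0.04 ± 0.08 (edgeR adjusted p = 0.717) and -0.02 ± 0.08 (adjusted p = 0.884). SETDB1, the methyltransferase it recruits, rose to 100.4 ± 1.89 CPM at 5 h and 99.8 ± 8.37 CPM at 12 h, against 68.1 ± 1.74 CPM at 0 h (0.56 ± 0.09, adjusted p = 2.94e-05, and 0.55 ± 0.09, adjusted p = 3.38e-05). The largest changes were falls of UHRF1, a reader of hemimethylated DNA (-1.56 ± 0.11 at 5 h, adjusted p = 4.02e-10), and of the DNA methyltransferase DNMT3B (-1.15 ± 0.20 at 5 h, adjusted p = 7.37e-05), and a rise of ATF7IP2, a relative of the SETDB1 cofactor ATF7IP (0.92 ± 0.14 at 5 h, adjusted p = 1.62e-05).

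Per kilobase of exon, the highest mean levels over the 9 libraries were those of ZNF664 (30.4 CPM per kb), ZNF512 (28.7), ZNF721 (24.5), ZNF770 (21.9), ZNF593 (21.3) and ZNF700 (18.0). ZNF512 had 146, 148 and 157 CPM at 12 h, against 116, 102 and 113 CPM at 0 h, a log2 fold change of 0.45 ± 0.09 (edgeR adjusted p = 0.000217), and was also higher at 12 h than at 5 h (0.36 ± 0.09, adjusted p = 0.00275). ZNF664 was not called, with 199 ± 15.5 CPM at 0 h, 196 ± 5.75 CPM at 5 h and 183 ± 8.82 CPM at 12 h. ZNF700 was not called either, with log2 fold changes of -0.08 ± 0.12 at 5 h and 0.22 ± 0.12 at 12 h against 0 h (adjusted p = 0.634 and 0.143). ZNF770 had 135 ± 13.6 CPM at 5 h against 108 ± 10.9 CPM at 0 h (0.33 ± 0.11, adjusted p = 0.0127), a call lost without replicate 3 at 0 h (0.0844), without replicate 1 at 5 h (0.0743) and under library totals (0.101).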

How the data were processed

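Members and gene lists were chosen with earlier results of these data known. The authors deposited whole-number counts per Ensembl gene, with no normalization the values show, and log2 values, each of which equals the log2 of 1 plus the count scaled by a library factor. The submitters' processing notes name cutadapt, RSEM, DESeq2 and the build GRCh38.p13 with no role or version, so the counts may be rounded estimates; the sources used here do not give annotation release, aligner or strand setting. All 9 libraries entered 1 edgeR 4.0.16 quasi-likelihood fit (R 4.3.3, TMM scaling, filterByExpr, 12036 genes) with 3 contrasts and Benjamini-Hochberg adjustment over those genes; 12 h against 5 h is also the test of the difference between the effects at 12 h and 5 h. The comparisons share libraries. SE is the log2 fold change over the root of F. Alternatives were DESeq2 1.42.0, limma 3.58.1 on the deposited log2 values, other scalings and filters, the replicate number as a block and leaving out each library. The script was tested on simulated data. Library totals of 4222258 to 9359187 counts set the precision, which is lowest for members with few counts. Named genes are, per comparison, the 8 called members with the largest change each way whose groups do not overlap in CPM, the 6 highest per kilobase of exon, and the role lists; ZNF814, ZNF587, ZNF552 and ZNF586 were added after values were seen. Names, positions and coding sequences come from GENCODE 29 and promoters from RefSeq (GRCh38.p14). Figures were drawn with matplotlib 3.10.9.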

Additional observations from a re-analysis of the deposited data

Results flagged for a closer look

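For 11 named members the fitted effects at 5 h and at 12 h against 0 h had opposite signs, at least 1 of these effects was called, and the difference itself was called by edgeR's test of 12 h against 5 h. In none of the 11 were both effects called. For ZNF768, ZNF790 and ZNF575 the only call against 0 h was lost in several alternatives, with DESeq2 adjusted p = 0.115 and 0.117 at 12 h and 0.0603 at 5 h. For ZNF644 it was lost without replicate 1 at 0 h (0.0627) or replicate 2 at 12 h (0.0776). The log2 fold change of 12 h against 5 h was positive for ZNF775 (1.42), ZNF768 (1.06), ZNF580 (0.98), ZNF575 (0.93) and ZNF516 (0.78). It was negative for ZNF587B (-1.73), ZNF583 (-1.49), ZNF658 (-0.90), ZNF790 (-0.86), ZNF800 (-0.71) and ZNF644 (-0.42). All 5 with a positive value have no KRAB box pattern. Of the 6 with a negative value, ZNF644 and ZNF800 have none either.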

How the results depend on the processing

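Under library totals without composition scaling, 38 members fell at 5 h against 0 h in place of 25, and the median log2 fold change moved to -0.0277. Counted outside the 100 most abundant genes, the members' share was 0.704% at 0 h, 0.724% at 5 h and 0.731% at 12 h. With single libraries left out, members higher ranged from 34 to 46 (5 h against 0 h), 37 to 46 (12 h against 0 h) and 20 to 27 (12 h against 5 h), and members lower from 19 to 25, 30 to 37 and 29 to 46. Of 93 calls of the 54 named members, 72 held in all alternatives run, 21 were lost in at least 1 and 0 reversed. The 93 include calls of ZNF704, ZNF853, ZNF785 and ZNF837, for which no p against 0 h is given. Replicate numbers did not pair the libraries: same-numbered libraries correlated between -0.143 and 0.163 in their deviations from the group means, and with the replicate block 48 members were higher and 26 lower at 5 h, 45 and 37 at 12 h, and 27 and 39 at 12 h against 5 h. A minimum of 180 or 45 counts gives 184 or 200 genes.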
